A study of Mus musculus with 2 samples.

Results

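Meiotic germ cells of the mouse testis, spermatocytes, were examined for their ubiquitin-specific proteases (Usp) and ubiquitin-conjugating enzymes (Ube2). Members were the protein-coding genes of the deposited table whose symbol began with Usp and a digit or with Ube2 and a letter. This gave 93 genes, 56 of the Usp family and 37 of the Ube2 family, among 22058 protein-coding genes and 53801 genes in all. A name rule also takes in Usp6nl, which encodes a Rab GTPase-activating protein and no protease, and Ube2cbp, annotated as a binding partner of a conjugating enzyme.

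Ubiquitin is attached to proteins by a relay of an activating enzyme (E1), a conjugating enzyme (E2) and a ligase (E3), and deubiquitinases such as the Usp proteases take it off again. The E2 largely sets which kind of chain is built, and related E2s carry ubiquitin-like proteins such as NEDD8 and ISG15. In the testis, ubiquitin marks on histones accompany meiotic silencing of the sex chromosomes and the later exchange of histones for protamines, and male mice that lack Ube2b are infertile.

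RNA-seq was done on sorted spermatocytes from testis, with 1 library labelled as SMC1beta knockout overexpressing SMC1alpha, called the labelled knockout below, and 1 library of SMC1beta wild type. SMC1beta is the meiosis-specific form of a subunit of cohesin, the ring that holds sister chromatids together, and SMC1alpha is its counterpart of dividing body cells. The labels name neither the promoter of the added SMC1alpha nor the age or number of animals, and leave "4N" in the sample titles unexplained. Neither library is a knockout with no overexpression of SMC1alpha, so loss of SMC1beta and added SMC1alpha cannot be told apart here. Values are TPM (transcript abundance scaled to sum to 1000000 in each library), which correct for transcript length and are a share of each library, so a level can be compared between genes. TPM keeps no read counts, so the depth behind a value is unknown beyond the minimum of 40000000 reads that the labels ask for. A single library stands for each genotype, so replicate error is unknown and no test was made: "higher" and "lower" describe these 2 libraries. For each gene, 1 TPM was added to both values and the log2 of labelled knockout over wild type was taken. Genes that reached 1 TPM in either library were kept and counted at 2-fold on this scale, while a fold given beside a gene is the ratio of its 2 TPM values.

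Several facts of the libraries touch every result below. Smc1b was at 62.9 TPM in the labelled knockout and 76.1 TPM in wild type, and Smc1a at 28.8 TPM in the labelled knockout and 0.51 TPM in wild type, so the level of Smc1b does not show its deletion. All 22 spermatocyte markers of the list were at 1 TPM or more. They summed to 5302 TPM in the labelled knockout and 6549 TPM in wild type, but did not move together. In the labelled knockout 7 were at least 2-fold higher (31.8%) and 3 lower (13.6%), beside 18.7% and 16.5% of all protein-coding genes. The most abundant of them, Ldhc, was among the lower ones, at 1585 TPM in the labelled knockout and 3398 TPM in wild type. The 20 spermatid markers, those of the haploid cells after meiosis, summed to 557.8 TPM in the labelled knockout and 4212 TPM in wild type. Markers of somatic testis cells summed to more in the labelled knockout, with 1749 TPM in the labelled knockout against 131.8 TPM in wild type for 11 Leydig cell genes, 655.9 TPM in the labelled knockout against 107.4 TPM in wild type for 17 Sertoli cell genes and 45.71 TPM in the labelled knockout against 4.97 TPM in wild type for 11 macrophage genes, with C1qa and Fcer1g at 0 in the wild-type library. The 17 spermatogonia genes summed to 407.5 TPM in the labelled knockout and 354.1 TPM in wild type. Of the 16 at 1 TPM or more, 10 were at least 2-fold higher (62.5%), beside 18.7% of all protein-coding genes. The filter favours higher genes here, since 9 of the 16 reached 1 TPM in the labelled knockout alone. The 8 peritubular myoid, 6 endothelial and 5 red blood cell genes summed to 57.97, 8.998 and 8.85 TPM in the labelled knockout and to 49.23, 8.13 and 5.41 TPM in wild type. The part of these cells in the results was not tested, and in bulk RNA fewer cells of a type and less RNA per cell cannot be told apart.

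Both families took nearly the same share of protein-coding RNA in the 2 libraries. Usp transcripts summed to 2077 TPM in the labelled knockout and 2670 TPM in wild type, which was 0.424% of protein-coding TPM in the labelled knockout and 0.427% in wild type. Ube2 transcripts summed to 2993 TPM in the labelled knockout and 3556 TPM in wild type, or 0.611% of protein-coding TPM in the labelled knockout and 0.568% in wild type. The lower summed TPM thus ran with that of all protein-coding genes, whose sum in the labelled knockout was 78.3% of the wild-type sum, against 77.8% for Usp and 84.2% for Ube2. A single conjugating enzyme, Ube2s, held 27.5% of the Ube2 total in the labelled knockout and 31.4% in wild type. Ube2s extends ubiquitin chains for the anaphase-promoting complex (APC/C), the ligase that drives cells out of metaphase.

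Most members differed by less than 2-fold. Of the 56 Usp members, 50 reached 1 TPM in at least 1 library, and of these 10 were higher by 2-fold or more in the labelled knockout and 6 lower. That is 20% and 12%, against a background of 18.7% higher and 16.5% lower among 15000 protein-coding genes, so neither share stands far from the background. Of the 10 higher Usp members, 4 passed the 1 TPM filter through the labelled knockout alone. Of the 37 Ube2 members, 36 reached 1 TPM, with 5 higher (13.9%) and 3 lower (8.33%). The median log2 ratio was -0.21 for Usp and -0.03 for Ube2, beside -0.05 for all protein-coding genes. The Ube2 median and that of all protein-coding genes turn positive under all 3 rescalings tried and the Usp median under 2 of them. The median of all protein-coding genes moves by 0.19, 0.41 and 0.36 under these rescalings. After rescaling over protein-coding genes the Usp split became 13 higher and 1 lower, beside 4487 higher and 1748 lower of 16496 protein-coding genes, and the Ube2 split stayed at 5 and 3. Among all members at 1 TPM or more, 17 changed sign under at least 1 rescaling, and 0 of these were at 2-fold.

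**Figure D1:**
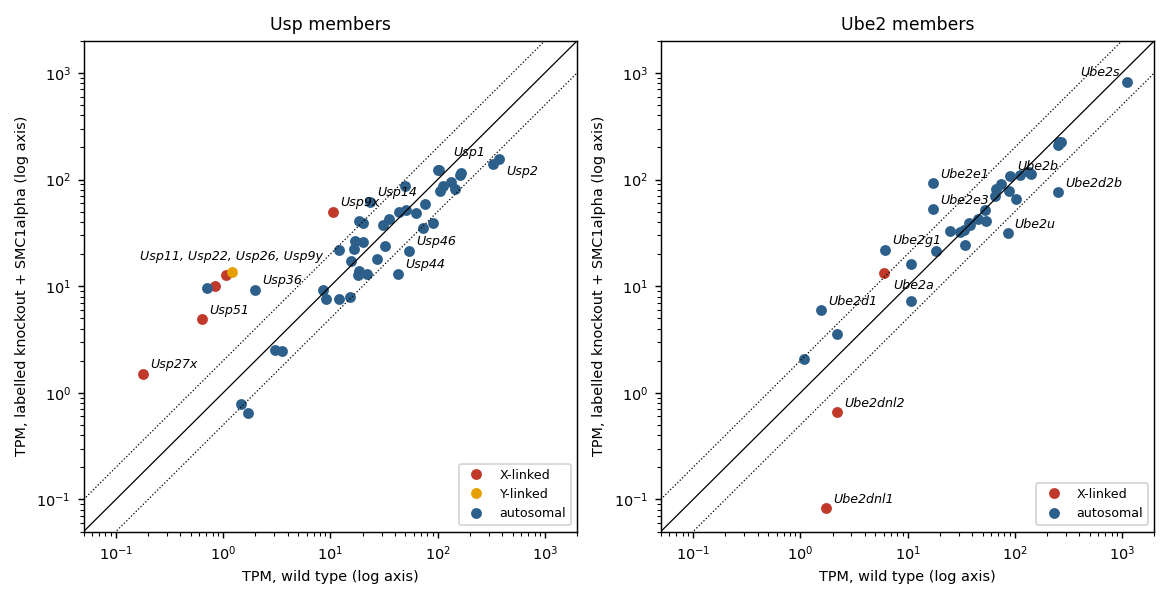
TPM in the labelled knockout (vertical, log axis) against TPM in wild type (horizontal, log axis) for members that reached 1 TPM in either library, with Usp on the left and Ube2 on the right; each point is 1 gene in 1 library per genotype, the solid line marks equal levels and the dotted lines a 2-fold ratio of TPM. The X-linked Usp genes and Usp9y lie above the upper dotted line, and most abundant Ube2 genes lie close to the solid line, with Ube2s at 823 TPM in the labelled knockout and 1117 TPM in wild type.

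The conjugating enzymes were the family with the narrower spread of log2 ratios between the libraries. The middle 50% of their log2 ratios ran from -0.34 to 0.31, against -0.55 to 0.74 for Usp and -0.69 to 0.74 for all protein-coding genes. The added 1 TPM draws low genes towards zero, so abundant genes were also set apart, a choice made after the values were seen. Of 28 Ube2 members that reached 20 TPM in either library, 22 (78.6%) had a log2 ratio within 0.5 of zero, against 14 of 32 (43.8%) for Usp and 37.9% of 6260 protein-coding genes.

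Deubiquitinases encoded on the sex chromosomes were higher in the labelled knockout. All 5 X-linked Usp genes and the Y-linked Usp9y were at least 2-fold higher, but 3 of the 5, Usp26, Usp51 and Usp27x, passed the 1 TPM filter through the labelled knockout alone. Without the 6 sex-linked genes the higher Usp members numbered 4 of 44 and the lower ones 6 of 44, against backgrounds of 16.7% and 17.0% among autosomal protein-coding genes. Of 620 X-linked protein-coding genes at 1 TPM or more, 62.7% were higher by 2-fold or more and 5.97% lower, with a median log2 ratio of 1.301. The filter favours higher genes here, since 295 of the 620 passed it through the labelled knockout alone and 52 through wild type alone, and the median over all 948 X-linked protein-coding genes was 0.685. Counting both families, 6 of 8 X-linked members were higher and 1 was lower, with a median of 1.48, which is close to the values of the 620 genes passed by the same filter, and no difference from it can be read from 8 genes. The same library had the larger sums of Leydig, Sertoli, macrophage and spermatogonia markers, whose part in these values was not tested.

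Usp9x, a large deubiquitinase of broad expression (ENSMUSG00000031010; mm10 chrX:13071498-13173328), was the most abundant of them at 49.8 TPM in the labelled knockout and 10.6 TPM in wild type, 4.71-fold higher. Its Y-linked copy Usp9y (ENSMUSG00000069044; chrY:1298961-1459782) had 13.6 TPM in the labelled knockout and 1.22 TPM in wild type, 11.2-fold higher. Usp9y made up 21.5% of the summed TPM of the pair in the labelled knockout and 10.3% in wild type. Both copies were thus higher in the same library, the Y copy by the larger factor. Usp11, which acts in DNA double-strand break repair, was at 12.7 TPM in the labelled knockout and 1.06 TPM in wild type. Usp26, a protease of the testis, had 10.05 TPM in the labelled knockout and 0.832 TPM in wild type. Usp11 and Usp26 were 12.0-fold and 12.1-fold higher, and both were near 1 TPM in wild type.

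The promoter windows of these genes are shown because the X-linked Usp genes and Ube2a were higher together and differ in base composition. Windows run from 250 bases before to 50 bases after the RefSeq start (GRCm38.p6), 5′ to 3′ along the gene's own strand, and capitals mark CpG dinucleotides. Ube2a is the X-linked conjugating enzyme of the same direction, and Usp46 and Ube2d2b are autosomal members that were lower, described further on.
Usp11, chrX:20703659-20703958, plus strand: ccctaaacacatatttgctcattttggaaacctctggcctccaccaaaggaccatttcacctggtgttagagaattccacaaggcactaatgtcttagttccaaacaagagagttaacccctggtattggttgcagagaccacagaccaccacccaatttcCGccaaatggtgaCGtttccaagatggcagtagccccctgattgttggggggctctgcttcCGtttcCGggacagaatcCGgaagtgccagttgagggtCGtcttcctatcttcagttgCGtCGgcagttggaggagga
Usp26, chrX:51801184-51801483, minus strand: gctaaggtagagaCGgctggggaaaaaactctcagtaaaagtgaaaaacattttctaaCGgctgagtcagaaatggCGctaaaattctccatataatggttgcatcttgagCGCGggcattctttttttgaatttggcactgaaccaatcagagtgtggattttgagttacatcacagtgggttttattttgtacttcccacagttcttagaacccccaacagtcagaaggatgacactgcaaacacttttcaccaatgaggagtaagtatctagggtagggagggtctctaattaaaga
Ube2a, chrX:36874045-36874344, plus strand: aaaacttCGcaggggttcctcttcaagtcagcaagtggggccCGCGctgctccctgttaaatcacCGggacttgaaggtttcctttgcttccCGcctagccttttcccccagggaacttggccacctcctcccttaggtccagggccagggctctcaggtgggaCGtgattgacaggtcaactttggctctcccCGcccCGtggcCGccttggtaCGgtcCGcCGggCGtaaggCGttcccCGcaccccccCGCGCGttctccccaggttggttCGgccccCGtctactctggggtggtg
Usp46, chr5:74068362-74068661, minus strand: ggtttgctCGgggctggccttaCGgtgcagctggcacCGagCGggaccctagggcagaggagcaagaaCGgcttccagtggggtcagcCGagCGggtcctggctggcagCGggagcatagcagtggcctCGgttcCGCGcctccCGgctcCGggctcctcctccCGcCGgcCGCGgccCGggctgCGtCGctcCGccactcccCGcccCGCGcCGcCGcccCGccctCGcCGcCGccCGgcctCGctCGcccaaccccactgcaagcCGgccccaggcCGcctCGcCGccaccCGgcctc
Ube2d2b, chr5:107829912-107830211, plus strand: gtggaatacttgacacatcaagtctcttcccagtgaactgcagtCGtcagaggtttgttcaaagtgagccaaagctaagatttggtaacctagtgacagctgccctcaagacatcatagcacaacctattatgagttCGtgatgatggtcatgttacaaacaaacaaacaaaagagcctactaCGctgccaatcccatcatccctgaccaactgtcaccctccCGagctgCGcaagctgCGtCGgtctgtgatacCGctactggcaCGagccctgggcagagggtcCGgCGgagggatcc

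The 3 X-linked windows did not share a CpG density. Usp26 held 5 CpG dinucleotides, Usp11 held 8 and Ube2a held 20, while the lower members Ube2d2b and Usp46 held 11 and 38. RefSeq windows were found for 73 of the 93 members. Their median number of CpG dinucleotides was 20 for 11 higher members, 28 for 7 lower members and 27.5 for 50 members under 2-fold, beside 19 for 11477 protein-coding genes at 1 TPM or more. The letters TAACNG, the core bound by MYB factors such as the meiotic MYBL1, were found on either strand in 5 of 11 higher members (Ube2a, Usp26, Usp36, Usp40 and Usp9y), 0 of 7 lower ones and 12 of 50 under 2-fold. That is 17 of 73 members, beside 23.3% of all 32851 windows. For each motif a member counts once if any of its windows matches, while the background counts every window. All windows also had a lower median number of CpG dinucleotides, 7, so these shares are not like for like. The cyclic AMP response element, TGACGTCA, was found in the windows of Ube2b, Ube2h and Usp29 and in 1.79% of all windows. Its first 6 letters, TGACGT, which are also counted inside the full element, were found in 11 members and 7.51% of all windows, among them Usp11. A match describes these letters in these windows and is not a binding site.

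**Figure D2:**
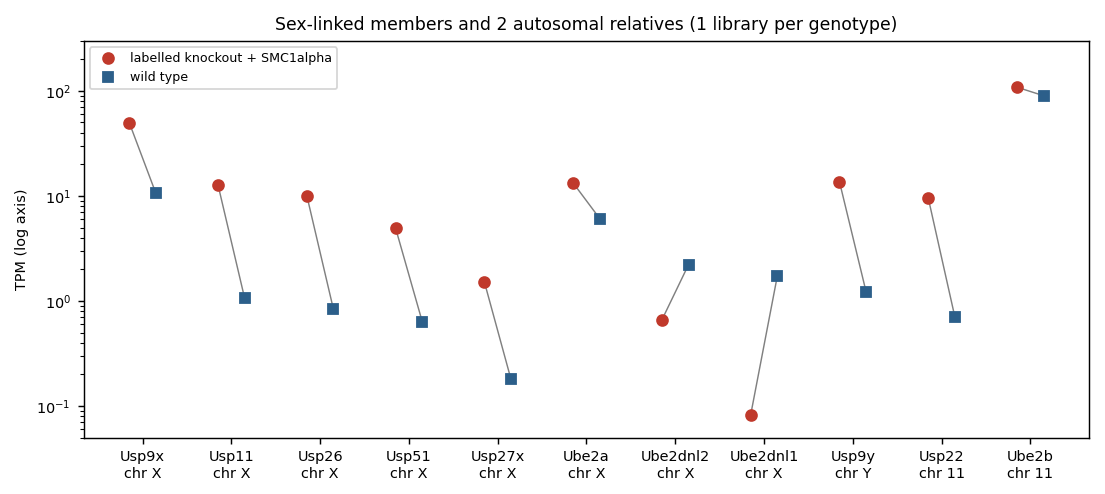
TPM (log axis) of the 8 X-linked members, the Y-linked Usp9y and the autosomal relatives Usp22 and Ube2b, with the labelled knockout as a circle on the left of each pair and wild type as a square on the right, 1 library each. The 5 X-linked Usp genes, Usp9y, Usp22 and Ube2a are higher in the labelled knockout, Ube2b is close to level, and Ube2dnl1 and Ube2dnl2 are lower.

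Usp22, Usp27x and Usp51 form a trio of related proteases that share the activating partners of the SAGA coactivator complex, where USP22 removes ubiquitin from histones H2A and H2B. All 3 were higher in the labelled knockout, although Usp22 is autosomal (chromosome 11). By the 2-fold count, 62.7% of X-linked and 16.7% of autosomal protein-coding genes were higher, and no share can be read from 3 genes. Usp22 was at 9.53 TPM in the labelled knockout and 0.703 TPM in wild type, 13.6-fold higher. Usp51 was at 4.93 TPM in the labelled knockout and 0.636 TPM in wild type, and Usp27x at 1.52 TPM in the labelled knockout and 0.179 TPM in wild type. The trio summed to 16.0 TPM in the labelled knockout and 1.52 TPM in wild type, and each member was under 1 TPM in the wild-type library. All 3 thus passed the 1 TPM filter through the labelled knockout alone and could not have been counted as lower. Of the partners, Eny2 was higher, at 48.8 TPM in the labelled knockout and 20.7 TPM in wild type, while Atxn7l3 and Atxn7 were lower by less than 2-fold. Atxn7l3 was at 10.03 TPM in the labelled knockout and 14.3 TPM in wild type, and Atxn7 at 20.2 TPM in the labelled knockout and 32.3 TPM in wild type.

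Of the 3 proteases that work with the activator WDR48 (UAF1), 2 were at least 2-fold lower, as was Wdr48 itself. Among all protein-coding genes 16.5% were lower, and no share can be read from 3 genes. Usp1, which removes ubiquitin from FANCD2 and PCNA, was at 141 TPM in the labelled knockout and 328 TPM in wild type, 2.33-fold lower. The close relatives Usp46 and Usp12 differed by unequal amounts, with Usp46 at 21.4 TPM in the labelled knockout and 53.7 TPM in wild type and Usp12 at 13.8 TPM in the labelled knockout and 18.4 TPM in wild type. Wdr48 was at 145 TPM in the labelled knockout and 302 TPM in wild type, and its partner Wdr20 at 36.9 TPM in the labelled knockout and 58.9 TPM in wild type. Of these 5 genes, Usp1, Usp46 and Wdr48 passed 2-fold and Usp12 and Wdr20 did not. After rescaling over protein-coding genes, Usp1, Usp46 and Wdr48 were no longer at 2-fold, with log2 ratios of -0.87, -0.95 and -0.70. Of the substrates, Fancd2 was at 29.0 TPM in the labelled knockout and 45.7 TPM in wild type, and Pcna at 158 TPM in the labelled knockout and 166 TPM in wild type.

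Of 17 chromatin-linked Usp genes, the above included and all at 1 TPM or more, 4 were higher and 4 lower (23.5% each), beside 18.7% higher and 16.5% lower among all protein-coding genes, so neither count is a result about the group. The group had a median log2 ratio of -0.37 that became 0.027 without mitochondrial and the 20 most abundant genes. Usp44, a histone H2B deubiquitinase that also acts in the spindle checkpoint, had the lowest ratio of the Usp family at 13.1 TPM in the labelled knockout and 42.9 TPM in wild type. It was 3.29-fold lower, and it was the 1 Usp gene that stayed at 2-fold lower after rescaling over protein-coding genes, at -1.33. Usp48 had 38.8 TPM in the labelled knockout and 90.2 TPM in wild type. The histone H2A deubiquitinases Usp3, Usp16 and Usp21 stayed under 2-fold. Usp3 was at 26.4 TPM in the labelled knockout and 17.1 TPM in wild type, Usp16 at 58.3 TPM in the labelled knockout and 76.3 TPM in wild type, and Usp21 at 23.8 TPM in the labelled knockout and 31.97 TPM in wild type. Usp28, a checkpoint and MYC-linked protease, lay just inside 2-fold at 38.9 TPM in the labelled knockout and 19.997 TPM in wild type. Usp7, which acts on MDM2 and p53, was close to level at 122 TPM in the labelled knockout and 104 TPM in wild type. Usp42, Usp45 and Usp49 had log2 ratios of -0.37, 0.16 and -0.72, the first of which turned positive under 1 rescaling.

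Of 3 proteases that recycle free ubiquitin, 2 were at 1 TPM or more and 1 of these was higher by 2-fold. Among all protein-coding genes 18.7% were higher, and no share can be read from 2 genes. Usp14, which trims ubiquitin chains at the proteasome and whose loss causes ataxia in mice, had 62.1 TPM in the labelled knockout and 23.4 TPM in wild type, 2.65-fold higher. Usp5, which breaks down unanchored ubiquitin chains, was at 86.4 TPM in the labelled knockout and 49.7 TPM in wild type, short of 2-fold. Its relative Usp13 was below the filter at 0.347 TPM in the labelled knockout and 0.0143 TPM in wild type. Reads of Usp14 and Thoc1 may be shared, since 25.1% of the 75-base windows of Usp14 transcripts in GENCODE M21, on either strand, also occurred in Thoc1 transcripts. By the coordinates of the deposited table the 2 genes overlap by 53 bases. Thoc1 had 36.3 TPM in the labelled knockout and 48.1 TPM in wild type.

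Among the Usp genes of membrane traffic and organelles, 2 of 10 were at least 2-fold lower and 0 higher, with a median of -0.52, beside 16.5% lower and 18.7% higher among all protein-coding genes. Both lower calls, Usp2 and Usp20, ended after rescaling over protein-coding genes, at -0.91 and -0.69. Usp2, a protease with testis isoforms whose loss lowers male fertility in mice, was the most abundant Usp gene in both libraries. It was at 156 TPM in the labelled knockout and 373 TPM in wild type, 2.40-fold lower, and its share of the Usp total was 7.49% in the labelled knockout and 14% in wild type. Usp20 was at 34.8 TPM in the labelled knockout and 72.3 TPM in wild type, while its close relative Usp33 was at 21.8 TPM in the labelled knockout and 11.9 TPM in wild type. The ratio of Usp20 to Usp33 within a library was thus 1.59 in the labelled knockout and 6.06 in wild type. Usp8, which sorts receptors at endosomes and is part of the acrosome-forming machinery of spermatids, had 80.8 TPM in the labelled knockout and 146 TPM in wild type. Usp8 and Usp50 lie on opposite strands over 50202 shared bases, and Usp50 was at 7.98 TPM in the labelled knockout and 15.3 TPM in wild type. Both were lower by nearly the same factor, 1.81-fold and 1.92-fold. Usp19 of the endoplasmic reticulum and Usp30 of mitochondria were close to level, at 122 and 43.0 TPM in the labelled knockout and 101 and 35.2 TPM in wild type. Usp10, Usp25, Usp32 and Usp6nl had log2 ratios of 0.43, -0.60, -0.48 and -0.57. Spermatid markers were lower in the same library as Usp2, Usp1, Usp44 and Usp46, and their part in these values was not tested.

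Of the remaining Usp genes, Usp36 and Usp40 were higher. Usp36, a nucleolar protease, was at 9.26 TPM in the labelled knockout and 1.99 TPM in wild type, and Usp40 was at 41.0 TPM in the labelled knockout and 18.6 TPM in wild type. The signalling proteases Usp4 and Usp15, which are close relatives, had 86.9 and 110 TPM in the labelled knockout and 112 and 163 TPM in wild type. Usp47, a protease of base excision repair, was at 114 TPM in the labelled knockout and 164 TPM in wild type, and Usp34 at 77.5 TPM in the labelled knockout and 105 TPM in wild type. These 4 abundant genes were all below the wild-type level by less than 2-fold, with log2 ratios from -0.56 to -0.36, and the ratio of Usp4 turned positive under 1 rescaling. Usp24, Usp37, Usp38, Usp39 and Usp54 lay between 0.02 and 0.36, and Usp29, Usp31, Usp35, Usp43 and Usp53 between -0.48 and -0.20, of which Usp29 and Usp31 turned positive under 2 rescalings. USP39 is a splicing factor without protease activity. Usp18, which removes the ubiquitin-like ISG15, was below 1 TPM in both libraries, as were 4 of the 5 genes of the Usp17-like cluster, and Usp17la had 0.652 TPM in the labelled knockout and 1.69 TPM in wild type.

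**Figure D3:**
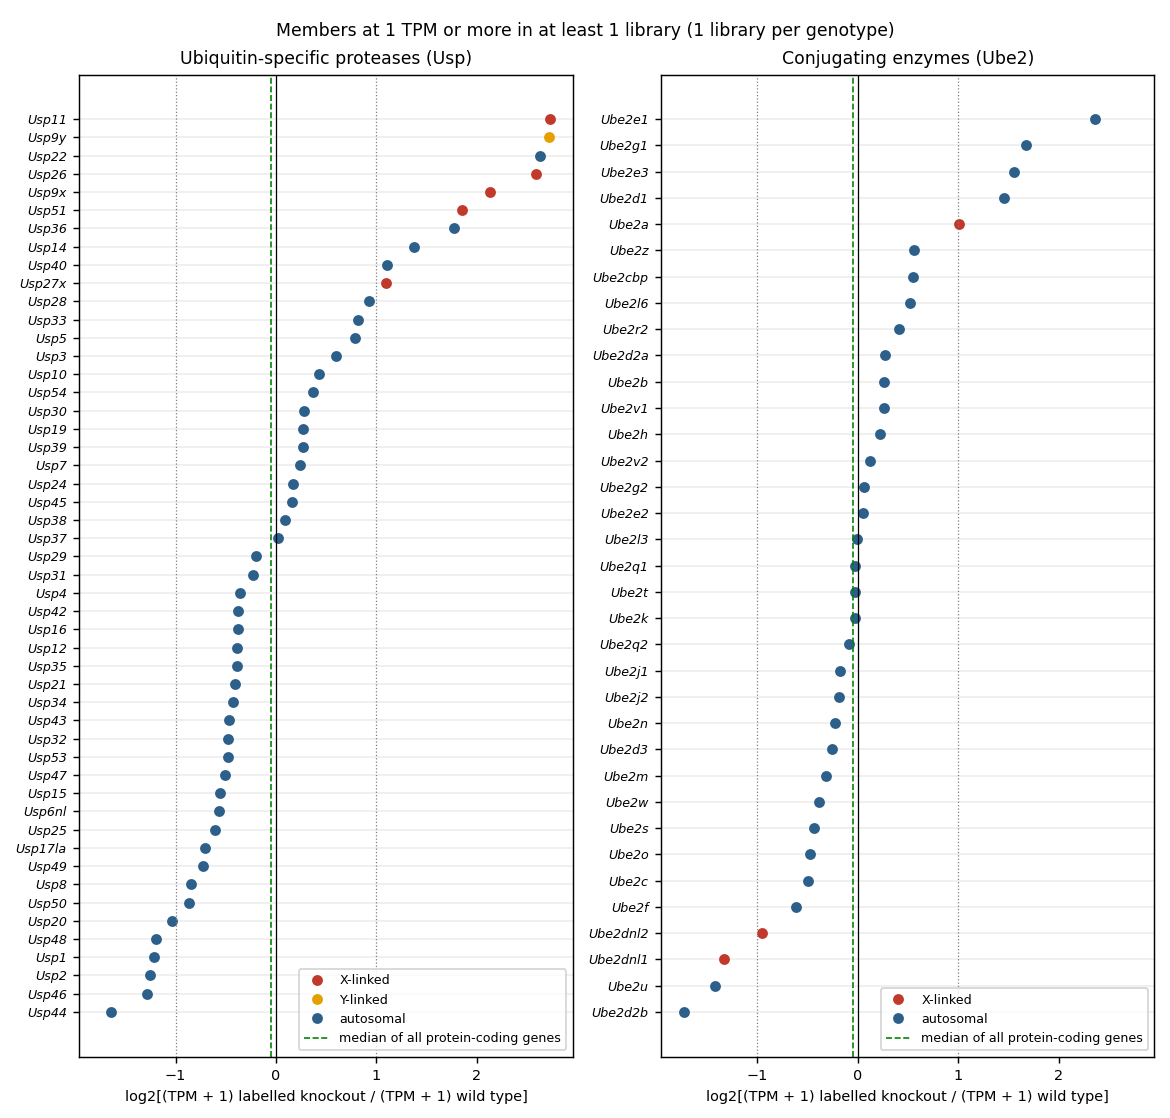
Log2 ratio of (TPM + 1) in the labelled knockout over wild type for Usp (left) and Ube2 (right) members at 1 TPM or more, sorted from the highest at the top, with X-linked, Y-linked and autosomal genes in separate colours; dotted lines mark 2-fold and the dashed line the median of all protein-coding genes at -0.05. The 6 sex-linked Usp genes are all past 2-fold, with the autosomal Usp22, Usp36, Usp14 and Usp40 among them, while the X-linked Ube2dnl1 and Ube2dnl2 lie near the bottom of theirs.

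Among the conjugating enzymes, Ube2e1, Ube2e3, Ube2g1, Ube2d1 and the X-linked Ube2a were higher by 2-fold or more. The UBE2D and UBE2E classes are E2s that work with many ligases. Ube2e1 (ENSMUSG00000021774; mm10 chr14:18282722-18331859) had the highest ratio of the family at 92.7 TPM in the labelled knockout and 17.3 TPM in wild type, 5.37-fold higher. Ube2e3 was at 52.9 TPM in the labelled knockout and 17.3 TPM in wild type, but Ube2e2 was level at 38.8 TPM in the labelled knockout and 37.4 TPM in wild type. Ube2e2 was therefore the most abundant of the 3 in wild type and the least abundant in the labelled knockout, and the 3 genes summed to 184 TPM in the labelled knockout and 71.9 TPM in wild type. Transcripts of Ube2e1 share 14.5% of their 75-base windows with Nkiras1, a gene on the opposite strand that had 14.7 TPM in the labelled knockout and 15.2 TPM in wild type. Ube2d1 was at 5.98 TPM in the labelled knockout and 1.55 TPM in wild type. Ube2g1, which with cullin ligases extends chains on primed substrates, was at 22.1 TPM in the labelled knockout and 6.21 TPM in wild type, while its relative Ube2g2 of the endoplasmic reticulum was at 32.4 TPM in the labelled knockout and 31.0 TPM in wild type.

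The UBE2D class held the lowest ratio of the family as well as the higher Ube2d1. Ube2d2b (ENSMUSG00000063447; mm10 chr5:107830099-107831776) has a single exon in GENCODE M21. It had 75.7 TPM in the labelled knockout and 254 TPM in wild type, 3.36-fold lower. Its relatives Ube2d2a and Ube2d3 were close to level. Ube2d2a was at 89.8 TPM in the labelled knockout and 74.0 TPM in wild type. Ube2d3 was at 223 TPM in the labelled knockout and 267 TPM in wild type. Ube2d2b was thus at 0.842 times the level of Ube2d2a in the labelled knockout and 3.43 times in wild type. Its 1678 bases lie wholly within Evi5 on the opposite strand, which was at 29.6 TPM in the labelled knockout and 13.5 TPM in wild type. Ube2dnl1 and Ube2dnl2 were the X-linked members that did not follow their chromosome. Ube2dnl1 was at 0.0828 TPM in the labelled knockout and 1.73 TPM in wild type, and Ube2dnl2 at 0.661 TPM in the labelled knockout and 2.22 TPM in wild type, so both passed the filter through wild type alone. Ube2u was at 31.3 TPM in the labelled knockout and 85.4 TPM in wild type, 2.73-fold lower. Spermatid markers were lower in the same library as Ube2d2b, Ube2u and the Ube2dnl genes, and their part was not tested.

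Of 6 E2s of DNA repair and histone ubiquitination, 1 was at least 2-fold higher (16.7%) and 0 lower. Among all protein-coding genes 18.7% were higher and 16.5% lower, so the count is no result about the group. The median was 0.19, and 0.54 after rescaling over protein-coding genes. Ube2a and Ube2b are the mouse counterparts of yeast RAD6, and their proteins work with RAD18 on PCNA and with RNF20 and RNF40 on histone H2B. The X-linked Ube2a was at 13.3 TPM in the labelled knockout and 6.08 TPM in wild type, 2.185-fold higher and just past 2-fold on the log2 scale at 1.01. The autosomal Ube2b was at 108 TPM in the labelled knockout and 89.9 TPM in wild type. Ube2b therefore dominated the pair in both libraries, and Ube2a made up 10.9% of their sum in the labelled knockout and 6.33% in wild type. Of their ligases, Rad18 had 77.5 TPM in the labelled knockout and 92.2 TPM in wild type, while Rnf20 and Rnf40, which together form an H2B ligase, went opposite ways. Rnf20 was at 39.2 TPM in the labelled knockout and 20.9 TPM in wild type, and Rnf40 at 58.6 TPM in the labelled knockout and 149 TPM in wild type. Ube2n, which builds lysine-63 chains, had 222 TPM in the labelled knockout and 260 TPM in wild type, and its log2 ratio of -0.23 became positive in 2 of the 3 rescalings. Its inactive partners Ube2v1 and Ube2v2 had log2 ratios of 0.26 and 0.12, and 55.0% of the Ube2v1 windows are shared with the gene model Gm20431, so the Ube2v1 level is uncertain. Ube2t of the Fanconi anaemia pathway was at 109 TPM in the labelled knockout and 111 TPM in wild type.

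E2s of the cell cycle and of ubiquitin-like proteins did not reach 2-fold. Neither did 28 of the 36 Ube2 members at 1 TPM or more or 9718 of 15000 protein-coding genes, so this is no result about these groups. Ube2s was at 823 TPM in the labelled knockout and 1117 TPM in wild type, and Ube2c, which starts the chains that UBE2S extends, at 7.32 TPM in the labelled knockout and 10.7 TPM in wild type. Ube2s exceeded Ube2c by 112-fold in the labelled knockout and 104-fold in wild type, so the gap between these partners was alike in both libraries. Their log2 ratios were -0.44 and -0.49. The NEDD8 E2s Ube2m and Ube2f were at 112 and 66.1 TPM in the labelled knockout and 140 and 102 TPM in wild type, and Ube2l6 of ISG15 at 3.54 TPM in the labelled knockout and 2.18 TPM in wild type. The ratio of Ube2m turned positive under 2 rescalings. Ube2j1 and Ube2j2, the E2s anchored in the endoplasmic reticulum, had log2 ratios of -0.18 and -0.19, both of which turned positive under all 3 rescalings. Ube2k, Ube2l3, Ube2q1 and Ube2q2 lay between -0.09 and -0.004 and also turned under all 3, Ube2h, Ube2r2 and Ube2z lay between 0.22 and 0.56, and Ube2o and Ube2w were at -0.47 and -0.38, of which Ube2w turned under 1 rescaling. Ube2ql1 was at 0.0423 TPM in the labelled knockout and listed at 0 in wild type, and Ube2cbp was at 2.07 TPM in the labelled knockout and 1.09 TPM in wild type.

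The steps before and after the E2s were read from lists of related genes. Of 10 activating enzymes at 1 TPM or more, 4 were at least 2-fold higher and 1 lower, with a median log2 ratio of 0.68, beside 18.7% higher, 16.5% lower and a median of -0.05 for all protein-coding genes. The 3 ubiquitin E1 genes were among the higher ones, with the X-linked Uba1 at 27.8 TPM in the labelled knockout and 10.7 TPM in wild type, the Y-linked Uba1y at 20.2 TPM in the labelled knockout and 3.19 TPM in wild type, and the autosomal Uba6 at 21.2 TPM in the labelled knockout and 8.14 TPM in wild type. Uba3, the catalytic subunit of the NEDD8 E1, was the other one at 46.6 TPM in the labelled knockout and 21.2 TPM in wild type. The lowest were Mocs3 at 6.46 TPM in the labelled knockout and 17.5 TPM in wild type, with a log2 ratio of -1.31, and Atg7 and Sae1 at -0.73 and -0.42. The genes that encode ubiquitin and its relatives showed 0 of 12 at 2-fold in either direction, with a median of 0.39. Nedd8 and Ufm1 had log2 ratios of 0.82 and 0.77, and Atg12 the lowest at -0.69. The polyubiquitin gene Ubb was at 1368 TPM in the labelled knockout and 1895 TPM in wild type.

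Deubiquitinases and SUMO proteases of other families had 6 of 45 higher (13.3%) and 4 lower (8.89%), beside 18.7% and 16.5% of all protein-coding genes. Their median of -0.02 turns positive under rescaling. X-linked Otud6a had the highest ratio of the list at 13.0 TPM in the labelled knockout and 0.578 TPM in wild type, and Uchl1, a spermatogonia marker of the list above, had 25.2 TPM in the labelled knockout and 5.73 TPM in wild type. Alg13, also X-linked, had a log2 ratio of 1.86, and Stambpl1 and Otud7b were at -1.98 and -1.28, of which Otud7b came to -0.94 after rescaling over protein-coding genes. The lowest was Otub2 at 5.68 TPM in the labelled knockout and 33.0 TPM in wild type. Of 35 ligases and adaptors that work with Ube2 members, 6 were higher (17.1%, near the background of 18.7%) and 2 lower (5.71%), with a median of 0.04. The lowest ratios were those of Rnf40, Dcun1d1 and Pias2, at -1.33, -1.17 and -0.94, and rescaling over protein-coding genes ended both lower calls, with Rnf40 at -0.99 and Dcun1d1 at -0.83. The higher ones included X-linked Huwe1, Siah1b and Cul4b and the autosomal Ubr2, the ligase that pairs with UBE2B in spermatocytes, at 11.3 TPM in the labelled knockout and 2.66 TPM in wild type. The meiotic E3 Ccnb1ip1 (HEI10), which acts in crossover formation, was at 19.2 TPM in the labelled knockout and 7.94 TPM in wild type, while its partner Rnf212 had 12.4 TPM in the labelled knockout and 9.14 TPM in wild type. Of 13 Usp partner genes measured, 1 was higher and 1 lower (7.69% each, below both background shares), namely Eny2 and Wdr48 given above. Trp53, G3bp1 and Gmps had log2 ratios of 0.84, 0.75 and -0.83.

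**Figure D4:**
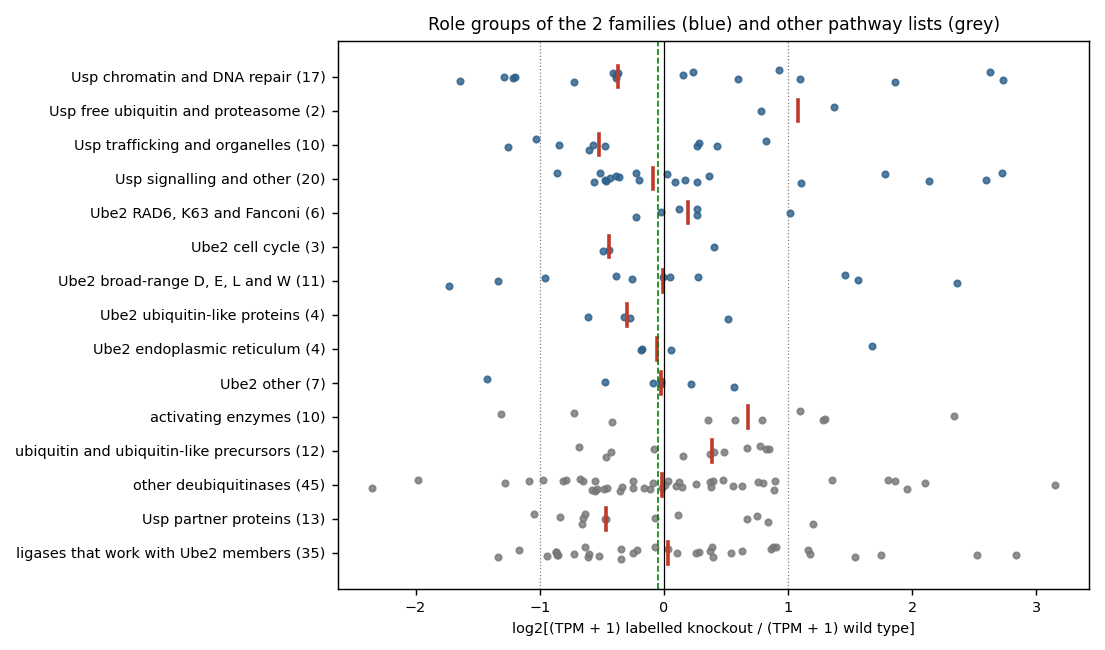
Log2 ratio of (TPM + 1) in the labelled knockout over wild type for each gene at 1 TPM or more (points, shifted vertically for visibility), by role group of the Usp and Ube2 families in blue and by related pathway list in grey, with the number of genes in brackets; red bars are medians, dotted lines 2-fold and the dashed line the median of all protein-coding genes. Most group medians lie within 0.5 of zero; those farther out are the 2 free ubiquitin and proteasome genes at 1.08, the activating enzymes at 0.68 and the trafficking genes at -0.52.

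How far reads can be shared limits single values. For 65 of the 93 members, under 5% of the 75-base windows of their GENCODE M21 transcripts also occurred in another gene on either strand. The share was 20% or more for 7 members, among them Ube2h, Ube2l3, Usp49 and the Usp17-like pair Usp17lc and Usp17ld. Usp49 shares 48.3% of its windows with the overlapping gene model Gm20517, and Ube2l3 shares 26.6% with Ydjc, so their values are uncertain. By the coordinates of the deposited table, however, Ube2l3 overlaps no other gene. The gene models behind the values may thus differ from those of GENCODE M21. The libraries were strand-specific, but how strand was used in quantification is not given in the sources used here, so overlapping genes on opposite strands may also be mixed. Of the genes at 2-fold, Usp1 shares 13.1% of its windows with the processed pseudogene Gm5841, which was at 0.202 TPM in the labelled knockout and 0.131 TPM in wild type.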

How the data were processed

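RNA from sorted spermatocytes, 1 library per genotype, was depleted of ribosomal RNA and sequenced strand-specifically as single-end reads of 75 bases, per the labels' protocols. The authors deposited 1 table of TPM per gene; each column sums to 1000000. Per the file headers, it also gives the gene length and the G+C content in percent. bcl2fastq 2.19.1, GSNAP, kallisto 0.43.1, TopHat and mm10 are named in the submitters' processing notes, with no role or order. Neither the annotation nor the use of strand is given in the sources used here.

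The members and all lists were chosen with earlier results of these data known. The lists served for counts and medians. Ratios used a pseudocount of 1 TPM and a filter of 1 TPM in at least 1 library. Genes named were, per family, the 10 highest and 10 lowest ratios at 5 TPM or more, the 5 most abundant per library, the sex-linked members, those listed at 0 in 1 library, and up to 4 per role group, and the 3 highest and 3 lowest of each pathway list. Other members, and pathway genes set beside a member, were added after their values were seen. So was the comparison of members at 20 TPM or more. No test was possible. Alternatives were pseudocounts of 0.1 and 5 TPM, 3 rescalings (by the trimmed mean of log2 ratios with 30% trimmed at each end; without mitochondrial and the 20 most abundant genes; over protein-coding genes), no filter or 5 TPM, 4-fold, and no sex-linked members. The calling code was checked on a copy of the wild-type values with known changes and no noise. That check says nothing about the error of the calls. A median was called moved beyond 0.1 log2. Shared windows were exact 75-base matches. Some genes of the families and lists, 1 of them left out of the plot of all ratios, are counted in the totals but not reported here by name. Promoters came from RefSeq (GRCm38.p6), matched by symbol. Computations ran in pandas 2.3.3 and NumPy 2.4.6 under Python 3.11.15, and plots in Matplotlib 3.10.9.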

Additional observations from a re-analysis of the deposited data

How the results depend on the processing

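With 1 library per genotype, leaving out a library was not possible. No paired analysis was possible because each genotype has 1 library and no test was run.

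The Usp median log2 ratio of -0.21 reversed to 0.13 without mitochondrial and the 20 most abundant genes, to 0.079 over protein-coding genes and to 0.012 with no filter. It was -0.051 with the trimmed mean, -0.10 at 5 TPM and -0.38 without X and Y members. The Ube2 median of -0.03 reversed to 0.17 with the trimmed mean, 0.38 without the most abundant genes and 0.32 over protein-coding genes. That of autosomal members, -0.18, reversed to 0.022, 0.23 and 0.17 under the same rescalings and was -0.026 with no filter. The X-linked median of 1.48 kept its sign, at 2.38 and 0.77 with pseudocounts of 0.1 and 5 TPM, 1.62, 2.04 and 2.06 under the 3 rescalings and 2.36 at 5 TPM. The count of 10 higher Usp members became 5 at 4-fold and 4 without X and Y members. The count of 6 lower ones became 1 without the most abundant genes, 1 over protein-coding genes and 0 at 4-fold. The 5 higher Ube2 members became 3 with a pseudocount of 5 TPM and 1 at 4-fold, and the 3 lower ones became 0 at 4-fold. Rescaling multiplies all TPM values of a library by the same factor. With 1 TPM added, the log2 ratios of low genes still shift unequally. Over protein-coding genes Usp22 went from 2.63 to 3.27 and Ube2dnl1 from -1.34 to -1.69. Other causes were not tested. No count or depth is behind a TPM value, so precision at low levels is unknown.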
